A study of Mus musculus with 12 samples.

Results

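Members of 2 families of interferon-inducible GTPases were followed over 12 arrays of sorted mouse myeloid cells. The guanylate-binding proteins (GBPs) Gbp2, Gbp3, Gbp5, Gbp6 and Gbp7 and the immunity-related GTPases (IRGs) Irgm1, Irgm2, Igtp and Iigp1 made a set of 9 named genes. A gene was taken as measured when a probe set of the array was annotated to it alone, with the brightest such probe set kept. By this rule 5 of the 9 genes were measured, Gbp3, Gbp5, Gbp7, Irgm1 and Iigp1, each by 1 probe set, among 19938 genes of the series. Gbp2 and Gbp6 each have only a probe set that is annotated to several GBP genes, and Irgm2 and Igtp share 1 probe set, so these 4 genes were given no level.

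GBPs and IRGs are large GTPases that cells make in quantity after exposure to interferon-gamma. They gather on the membranes of vacuoles that hold bacteria or parasites, where GBPs help to break the vacuole and to expose bacterial products to inflammasomes and caspases. In mice, effector IRGs such as Iigp1 attack the vacuole membrane, while the regulatory IRGM proteins, Irgm1 among them, keep effector IRGs inactive on the cell's own membranes. Microglia (MG) and macrophages express both families when interferon reaches them.

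Each of 12 populations, with RNA on 1 Affymetrix Mouse Gene ST array, was sorted by flow cytometry from C57BL/6 mice. Tumor-bearing mice carried GL261, a glioma cell line of mouse origin that forms brain tumors in this strain, and the labels give implantation at 7 weeks of age and 2 weeks of growth. The same text stands on the samples of normal mice. Tumor brain gave tumor MG (CD11b+/CD45low), tumor macrophages (MP, CD11b+/CD45high), tumor Gr1+ cells and tumor Gr1- cells, and normal brain gave normal MG and normal MP. Blood of tumor-bearing mice gave Gr1+ cells, Gr1- cells and the populations labelled macrophage high and macrophage low, and blood of normal mice gave macrophage high and macrophage low. Gr1 is a surface antigen of granulocytes and inflammatory monocytes, and the gate behind high and low was not given in the sources used here. The number of mice pooled for an array was likewise not given. With 1 array for each population there was no replicate error, so differences between 2 arrays are given without a test, and only a fit over several populations, described with the brain arrays, has p-values. In such bulk samples, fewer cells of a type and less RNA per cell cannot be told apart.

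Deposited log2 values were used as they stood. The 1027 olfactory receptor genes, which myeloid cells are not known to use, served as a measure of background. Their 95th percentile was taken as the background level of an array, and it lay between 8.93 and 10.09 on the log2 scale. Between 11.2% and 39.1% of genes lay above it, with the smallest percentage on normal blood macrophage high. As a yardstick for 2 arrays, the spread (SD) of log2 differences over olfactory receptor genes was taken, which is not a replicate error. In brain, 10 or 11 of 11 microglia markers lay above background on tumor MG, tumor MP, tumor Gr1-, normal MG and normal MP. On tumor Gr1+ 4 of 11 did. Counts of these markers above background thus did not separate MG from MP. In normal brain their levels did differ, with a median log2 value of 12.88 on normal MG and 11.11 on normal MP. In the tumor the median of microglia markers was 11.78 on tumor MP and 11.48 on tumor MG. Monocyte markers had 6 of 9 above background on each of these 2 arrays. In blood, markers went against some labels. The blood Gr1- array had all 11 microglia markers above background, as did tumor MP. Over all genes its values correlated with those of tumor MP (Pearson's r = 0.962). In B cell markers it differed from tumor MP, with 6 of 7 above background on blood Gr1- and 1 of 7 on tumor MP. The tumor blood macrophage low array had 10 of 10 NK cell markers and 7 of 7 B cell markers above background, and 3 of 9 monocyte markers. The normal blood macrophage high array had 8 NK cell, 5 B cell and 0 monocyte markers above background. These 3 arrays are therefore named by their labels only. The blood Gr1+ array also had 5 of 11 microglia and 2 of 4 oligodendrocyte markers above background. On tumor blood macrophage high 2 of 11 and 0 of 4 were.

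The start regions of these genes were searched for known interferon motifs. A link between motifs and the differences between arrays was not tested. RefSeq (GRCm38.p6) gave a promoter window, 250 bases before to 50 after the start, for 7 of the 9 genes, namely Gbp2, Gbp3, Gbp5, Gbp7, Irgm1, Irgm2 and Igtp. The letters GAAA, any 2 bases and again GAAA, on either strand, stand here for the interferon-stimulated response element (ISRE), a motif of interferon-induced promoters, and TTCNNNGAA, which reads the same on both strands, for the gamma-activated site (GAS), a motif of promoters that answer to interferon-gamma. Each of these 7 genes had ISRE letters in a window, against 3.44% of 32851 windows of this length. Gbp3 has 2 windows, and its matches lay in 1 of them. GAS letters were found in 4 of the 7, Gbp5, Gbp7, Irgm2 and Igtp, against 8.3% of windows, and 0.454% of all windows held both. Windows of neighbouring family members are related in sequence, so these are not independent observations. Stretches of 180 bases are given below for the 4 measured genes that have a window, 5′ to 3′ on the gene's strand, with ISRE and GAS letters in capitals. That of Gbp3 runs from 208 to 29 bases before the start, and the other 3 run from 180 to 1.
Gbp3, chr3:142559836-142560015, plus strand: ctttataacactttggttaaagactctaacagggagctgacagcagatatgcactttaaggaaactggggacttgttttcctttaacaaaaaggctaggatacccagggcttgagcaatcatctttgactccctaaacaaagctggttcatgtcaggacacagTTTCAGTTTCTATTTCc
Gbp5, chr3:142496754-142496933, plus strand: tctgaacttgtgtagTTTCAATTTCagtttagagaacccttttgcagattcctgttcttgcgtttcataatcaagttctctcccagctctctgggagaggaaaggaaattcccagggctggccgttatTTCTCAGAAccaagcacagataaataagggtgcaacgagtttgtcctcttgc
Gbp7, chr3:142530156-142530335, plus strand: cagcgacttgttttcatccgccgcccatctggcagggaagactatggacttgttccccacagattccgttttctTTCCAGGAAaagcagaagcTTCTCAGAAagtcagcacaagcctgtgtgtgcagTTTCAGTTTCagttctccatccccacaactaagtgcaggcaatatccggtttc
Irgm1, chr11:48871421-48871600, minus strand: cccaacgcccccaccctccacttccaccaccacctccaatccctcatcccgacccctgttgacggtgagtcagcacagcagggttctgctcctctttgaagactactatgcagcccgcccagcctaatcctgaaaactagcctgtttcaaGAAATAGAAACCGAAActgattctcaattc
Gbp3, shown at 1 of its 2 annotated starts, and Irgm1 each held 2 overlapping ISRE matches. Those of Gbp3 lay 45 to 36 and 39 to 30 bases before the start, and those of Irgm1 lay 30 to 21 and 24 to 15 bases before it. Gbp7 held 1 ISRE match at 53 to 44 bases and GAS matches at 106 to 98 and 87 to 79 bases. Gbp5 held its ISRE match at 165 to 156 bases and a GAS match at 52 to 44 bases, and another GAS match lay upstream of the stretch shown, at 245 to 237 bases. The 3 GBP genes lie beside each other on chromosome 3. A match is a run of letters and was not shown to be bound in these cells.

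Values of the 5 measured genes were spread widely over the 12 arrays. Of their 60 values, 39 lay above background, 23 of 30 in brain and 16 of 30 in blood. On each of the 4 tumor brain arrays and on the blood Gr1+ and blood Gr1- arrays all 5 genes were above background. The remaining arrays had 3 or fewer, with 2 on normal MP, 1 on normal MG, 3 on tumor and 0 on normal blood macrophage high, and 2 on tumor and 1 on normal blood macrophage low.

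**Figure D1:**
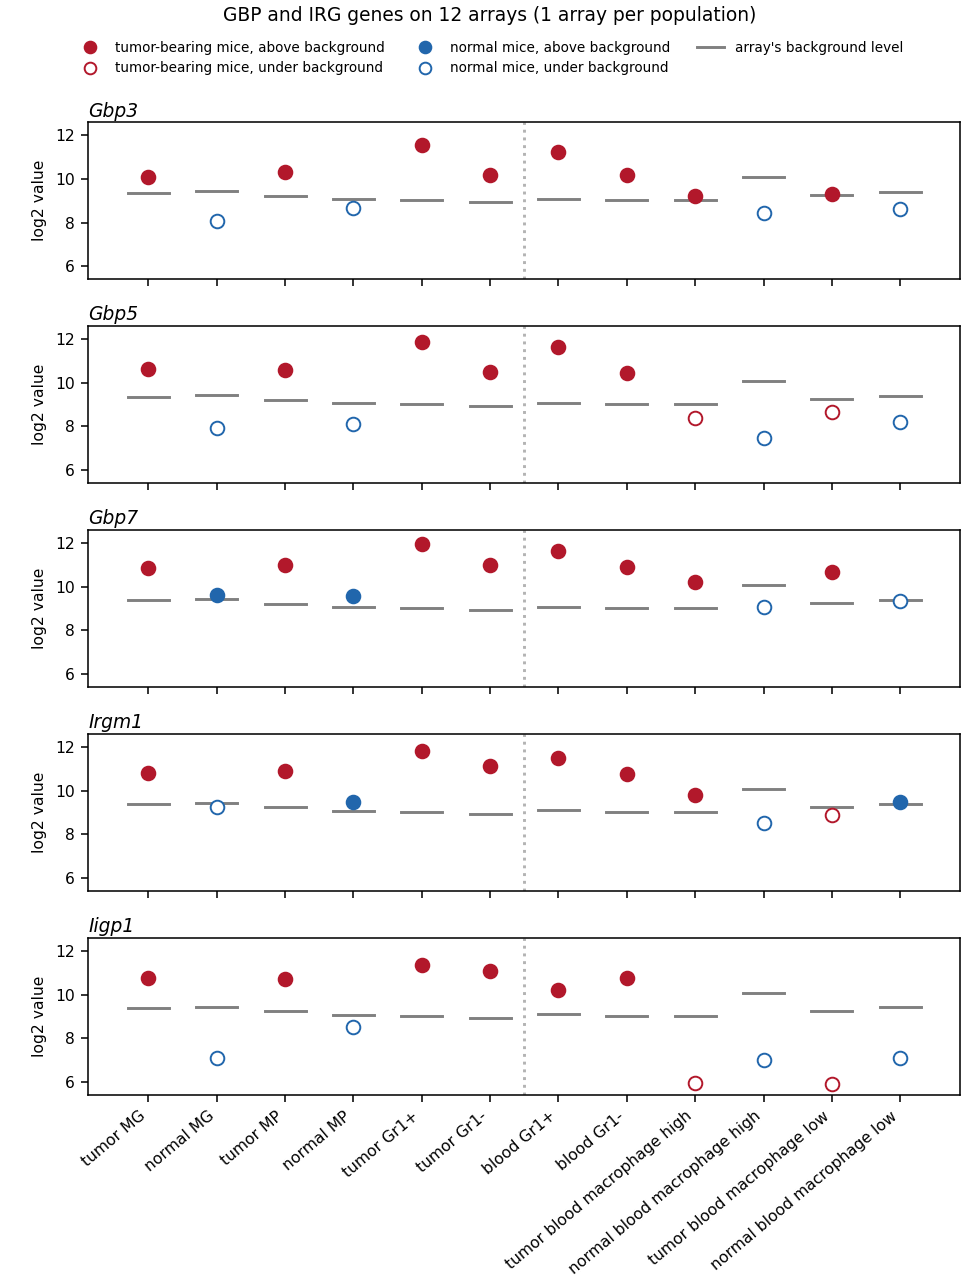
Log2 value (vertical axis) of each of the 5 measured GTPase genes on the 12 arrays (horizontal axis), with tumor-bearing mice in red and normal mice in blue, open circles for values under background and gray bars for each array's background level. All 5 genes sit above background on the 4 tumor brain arrays and on blood Gr1+ and Gr1-, and Iigp1 is under it on both normal brain arrays and on all 4 blood macrophage arrays.

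Gbp5, a GBP that promotes inflammasome assembly, was above background only on those 6 arrays. Its log2 value was 10.65 on tumor MG, 10.61 on tumor MP, 11.86 on tumor Gr1+ and 10.50 on tumor Gr1-, against 7.93 on normal MG and 8.11 on normal MP. In blood it was 11.66 on Gr1+, 10.45 on Gr1-, 8.37 on tumor macrophage high and 8.67 on tumor macrophage low, against 7.47 on normal macrophage high and 8.20 on normal macrophage low. The 4 tumor brain values thus lay above both normal brain values, which were under background, and both Gr1+ arrays were the brightest of the 12.

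Gbp3, encoded in the same gene cluster as Gbp5, had the same order at the top. It stood at 10.11 on tumor MG, 10.33 on tumor MP, 11.54 on tumor Gr1+ and 10.18 on tumor Gr1-, against 8.07 on normal MG and 8.68 on normal MP. Its blood values were 11.24 on Gr1+, 10.18 on Gr1-, 9.22 on tumor macrophage high and 9.32 on tumor macrophage low, against 8.43 on normal macrophage high and 8.62 on normal macrophage low. It lay under background on all 4 normal arrays and only just above it on both blood macrophage arrays of tumor-bearing mice, whose background was 9.02 and 9.25.

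Gbp7, which in mice is linked to the delivery of oxidase and autophagy components to vacuoles, was the member most often above background, on 10 of 12 arrays. Its log2 value was 10.87 on tumor MG, 11.01 on tumor MP, 11.95 on tumor Gr1+ and 10.99 on tumor Gr1-, against 9.63 on normal MG and 9.59 on normal MP. In blood it was 11.62 on Gr1+, 10.93 on Gr1-, 10.24 on tumor macrophage high and 10.67 on tumor macrophage low, against 9.08 on normal macrophage high and 9.36 on normal macrophage low. Gbp7 was the only member above background on normal MG, so raising values to background did not change its difference there. That value lay only 0.19 above the array's background of 9.43, less than the olfactory receptor SD of 0.41 between tumor MG and normal MG.

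Irgm1, the regulatory IRG, was above background on 9 arrays. It had 10.83 on tumor MG, 10.89 on tumor MP, 11.81 on tumor Gr1+ and 11.12 on tumor Gr1-, against 9.24 on normal MG and 9.46 on normal MP. Blood values were 11.48 on Gr1+, 10.76 on Gr1-, 9.82 on tumor macrophage high and 8.90 on tumor macrophage low, against 8.52 on normal macrophage high and 9.47 on normal macrophage low. Tumor and normal arrays did not overlap in brain, while in blood the tumor macrophage low value was under the normal macrophage low value.

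Iigp1, the effector IRG that damages vacuoles of intracellular parasites in mice, was above background on 6 of 12 arrays. It was at 10.78 on tumor MG, 10.73 on tumor MP, 11.37 on tumor Gr1+ and 11.10 on tumor Gr1-, against 7.07 on normal MG and 8.50 on normal MP, both under background. In blood it was at 10.21 on Gr1+ and 10.75 on Gr1-, and at 5.93 and 5.91 on tumor macrophage high and low, against 7.01 and 7.07 on normal macrophage high and low. All 4 blood macrophage values were far under background, so no order among them can be read.

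These genes had higher values on tumor MG than on normal MG. Each of the 5 measured genes passed the 2-fold threshold upward and none downward, beside 2.44% of all genes that were higher and 3.61% that were lower. The median log2 difference of the 5 genes was 2.05, against -0.09 over all genes, and the SD of olfactory receptor genes was 0.41. Gbp7, measured above background on both arrays, differed by 1.25 on the log2 scale, which is 2.38-fold. The other 4 were under background on normal MG, so their measured log2 differences of 2.05 (Gbp3), 2.71 (Gbp5), 1.59 (Irgm1) and 3.71 (Iigp1) include noise at the low end. With the normal MG value raised to that array's background, the differences were at least 1.60-fold for Gbp3, 2.32-fold for Gbp5, 2.64-fold for Irgm1 and 2.54-fold for Iigp1. Then 4 of the 5 genes stayed at least 2-fold higher, beside 0.657% of all genes, and their median log2 difference was 1.25. Markers of monocytes and their descendants differed along with them, with 6 of 9 above background on tumor MG and 0 of 9 on normal MG. The median log2 value of that list was 10.32 on tumor MG, with members between 7.39 and 12.20, and 7.11 on normal MG, with members between 6.52 and 9.34. The part of such cells in the difference was not tested.

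Tumor MP also had higher values than normal MP. Here too 5 of 5 genes passed 2-fold upward and none downward, beside 1.65% of all genes that were higher and 3.58% that were lower. Their median log2 difference was 1.66, against 0.12 over all genes with an olfactory receptor SD of 0.39. Gbp7 and Irgm1 were above background on both arrays and differed by 2.68-fold each. Gbp3, Gbp5 and Iigp1 had measured log2 differences of 1.66, 2.50 and 2.23. Because their normal MP values were under background, these were at least 2.40-fold, 2.91-fold and 3.16-fold. With this floor all 5 stayed at least 2-fold higher, beside 0.512% of all genes. Monocyte markers went the other way here, with 6 of 9 above background on tumor MP and 8 of 9 on normal MP. Neutrophil markers were above background for 1 of 12 on tumor MP and 10 of 12 on normal MP, with list medians of 8.33 on tumor MP and 11.67 on normal MP. All 7 markers of border-associated macrophages were above background on normal MP and 2 of them on tumor MP. Tumor MP and normal MP thus differed in the cells their markers point to, and the part of this in the GTPase differences was not tested.

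Across the brain, the lowest of the 4 tumor arrays lay above the higher of both normal arrays for 5 of 5 members. This was so for 5.58% of all genes. The tumor MG and tumor MP arrays are close to each other over all genes (r = 0.975), so they are not separate evidence. Between them no member was 2-fold apart, beside 0.186% of genes higher and 0.155% lower in tumor MP. The members' log2 differences, tumor MP minus tumor MG, ran from -0.05 for Iigp1 to 0.22 for Gbp3, all within the SD of olfactory receptor genes of 0.35. In normal brain Iigp1 alone was at least 2-fold apart, at 8.50 on normal MP and 7.07 on normal MG, beside 4.35% of genes higher and 3.11% lower in normal MP. Both values were under background, so no fold is given. The other 4 had log2 differences, normal MP minus normal MG, of 0.61 for Gbp3, 0.17 for Gbp5, -0.04 for Gbp7 and 0.22 for Irgm1, where the median of all genes was -0.22.

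Tumor and normal arrays were also compared in a fit of all 19938 genes with the population as a block (limma), a choice made after the data were seen. Over MG and MP, with 2 tumor and 2 normal arrays, the members' log2 differences with their standard errors were 1.85 ± 0.23 for Gbp3, 2.61 ± 0.22 for Gbp5, 1.34 ± 0.22 for Gbp7, 1.51 ± 0.22 for Irgm1 and 2.97 ± 0.38 for Iigp1. The adjusted p from limma was between 0.0930 and 0.148, so no member passed 0.05, beside 0.0251% of all genes that passed and were higher. At an unadjusted p under 0.05 all 5 members were higher, beside 2.45% of genes. Over 4 populations, with blood macrophage high and low added, no member passed, beside 0% of genes, with adjusted p from limma between 0.217 and 0.964. Unadjusted, 4 members and 1.02% of genes were then higher. The blood arrays were paired by label, though their markers differed within each pair. Monocyte markers were above background for 9 of 9 on tumor and 0 of 9 on normal macrophage high. For macrophage low they were so for 3 of 9 on the tumor and 8 of 9 on the normal array. The fit over 4 populations thus cannot be read as tumor against normal in like cells. Different populations are not replicates, and tumor MG and tumor MP were nearly alike, so these p-values do not measure a replicate spread. With so few arrays, limma draws each gene's error toward a value shared by all genes. The standard errors and p-values are therefore not a measure of how even each member was across populations.

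**Figure D2:**
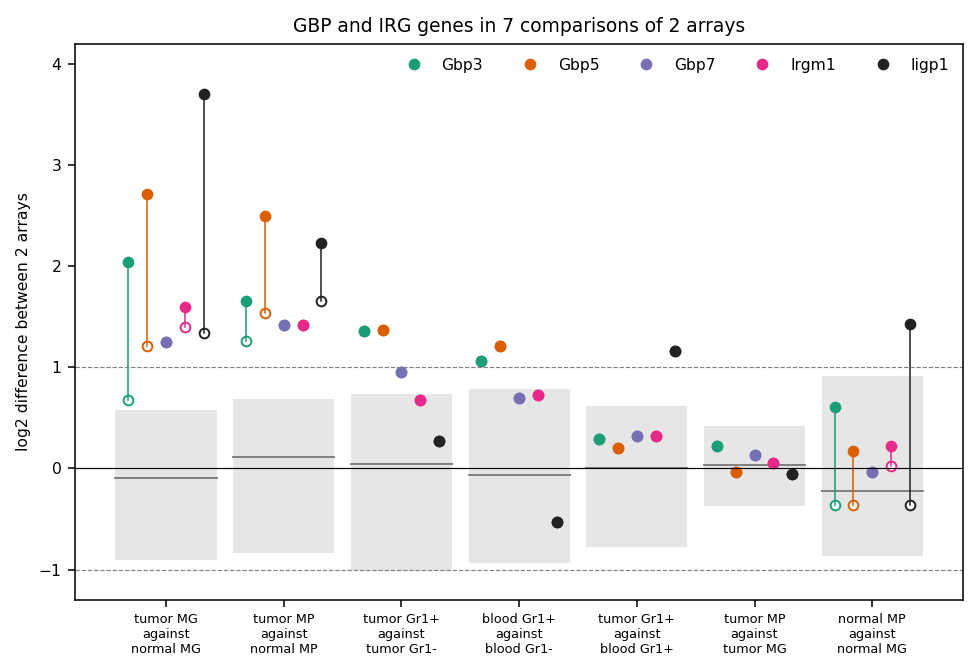
Log2 difference between 2 arrays (vertical axis) of the 5 measured genes in 7 comparisons (horizontal axis), as deposited (filled circles) and with values under background raised to it (open circles), over gray boxes that span the 5th to the 95th percentile of all genes with a line at their median. All 5 genes lie above the box in tumor MG and tumor MP against their normal arrays, while none leaves it between tumor MP and tumor MG.

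Gr1 served the study as a gate for myeloid-derived suppressor cells, and Gr1+ cells were compared with Gr1- cells of the same tissue. In Gr1+ against Gr1- cells of the tumor, Gbp3 and Gbp5 were 2.56-fold and 2.58-fold higher, making 2 of 5 members at least 2-fold higher, beside 2.88% of all genes. None was 2-fold lower, beside 5.12% of genes. Gbp7 differed by 0.96 and Irgm1 by 0.68 on the log2 scale, and the difference of 0.27 for Iigp1 was within the olfactory receptor SD of 0.35. All 10 values behind these differences were above background. Markers split the arrays as well, with 9 of 9 monocyte and 4 of 11 microglia markers above background on tumor Gr1+, against 5 of 9 and 11 of 11 on tumor Gr1-. NK cell markers were above background for 0 of 10 on tumor Gr1+ and 4 of 10 on tumor Gr1-. Their part in the differences was not tested.

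In blood, Gbp3 and Gbp5 were again at least 2-fold higher in Gr1+ than in Gr1- cells, by 1.06 and 1.21 on the log2 scale, beside 3.2% of all genes. Gbp7 and Irgm1 had log2 differences of 0.70 and 0.72. Iigp1 had -0.53, with 10.21 in blood Gr1+ and 10.75 in blood Gr1- cells, and was the only member lower in Gr1+ cells. No member was 2-fold lower, beside 4.31% of genes. Of 7 B cell markers, 6 were above background on blood Gr1- and 1 on blood Gr1+, and their part in the differences was not tested. The blood Gr1- array carried the microglia markers described above, so this comparison cannot be read as one among circulating cells. The members on that array were also close to tumor MP, with log2 differences, blood Gr1- minus tumor MP, between -0.16 for Gbp5 and 0.02 for Iigp1. Set against tumor blood macrophage high instead, a choice made after the data were seen, blood Gr1+ cells had all 5 members at least 2-fold higher, beside 5.2% of genes that were higher and 3.17% that were lower. Gbp3, Gbp7 and Irgm1 were then 4.06-fold, 2.61-fold and 3.17-fold higher, and Gbp5 and Iigp1 were at least 6.25-fold and 2.29-fold higher. B cell markers were above background for 1 of 7 on blood Gr1+ and 5 of 7 on tumor blood macrophage high, and microglia markers for 5 and 2 of 11. Their part in these differences was not tested.

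Tumor Gr1+ and blood Gr1+ cells were close for 4 of the 5 genes. Gbp3, Gbp5, Gbp7 and Irgm1 had log2 differences, tumor minus blood, of 0.29, 0.20, 0.33 and 0.32, all within the olfactory receptor SD of 0.43. Iigp1 was the exception, with 11.37 on tumor Gr1+ and 10.21 on blood Gr1+, a 2.24-fold difference between values above background. Hence 1 of 5 members was at least 2-fold higher in tumor Gr1+ cells, beside 1.02% of genes, and none was 2-fold lower, beside 2.97%. Neutrophil markers were above background for 1 of 12 on tumor Gr1+ and 7 of 12 on blood Gr1+. Microglia markers were so for 4 of 11 on tumor Gr1+ and 5 of 11 on blood Gr1+, which thus also carried markers of brain cells. The part of these cells in the likeness and in the difference of Iigp1 was not tested.

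Tumor MP exceeded blood macrophage high cells of tumor-bearing mice for 4 of 5 members, beside 8.6% of genes at least 2-fold higher and 6.2% lower. Gbp3 and Irgm1 were 2.16-fold and 2.09-fold higher, Gbp7 was 1.71-fold higher, and Gbp5 and Iigp1 were at least 3.01-fold and 3.27-fold higher. The olfactory receptor genes themselves were less stable between these arrays, with an SD of 0.62 and a median of 0.22 over all genes. Gbp7 and, with the arrays centred on their medians, also Gbp3 and Irgm1 were under 2-fold. Microglia markers were above background for 11 of 11 on tumor MP and 2 of 11 on tumor blood macrophage high, neutrophil markers for 1 and 7 of 12, and B cell markers for 1 and 5 of 7. Their part in these differences was not tested.

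Tumor and normal blood macrophages gave no common direction. In macrophage high, Gbp7 and Irgm1 were at least 2-fold higher as deposited, at 10.24 and 9.82 in tumor-bearing mice and 9.08 and 8.52 in normal mice, beside 17.7% of all genes higher. Iigp1 was counted among the lower genes, beside 32.9% of all genes, from values under background on both arrays. The median of all genes was -0.72 there, and the background of the normal array was the highest of the 12, so with the floor no member was 2-fold higher, beside 3.96% of genes, and 2 were lower, beside 69.9%. In macrophage low, Gbp7 was 2-fold higher, at 10.67 in tumor-bearing and 9.36 in normal mice and at least 2.39-fold over background, beside 3.29% of genes. Irgm1 had 8.90 in tumor-bearing mice, under background, and 9.47 in normal mice. Iigp1, under background on both arrays, was counted as lower, beside 6.06% of genes. Each tumor array was also set against the other normal array, since tumor macrophage low and normal macrophage high had few or no monocyte markers above background, against 9 of 9 on tumor macrophage high and 8 of 9 on normal macrophage low. The pair with monocyte markers also had 5 of 7 B cell and 7 of 12 neutrophil markers above background on each array. No member was then at least 2-fold higher in tumor macrophage high, beside 1.79% of genes, where Gbp7 differed by 0.88 and Irgm1 by 0.35 on the log2 scale. Iigp1, under background, was again counted as lower there, beside 5.79% of genes. In tumor macrophage low, Gbp5 and Gbp7 were then higher, beside 13.5% of genes, and Iigp1 was lower, beside 13.2%, with Gbp5 and Iigp1 under background on both arrays. Of the 5 members, Gbp3, Gbp5 and Gbp7 had all 4 blood arrays of tumor-bearing mice above both of normal mice, as did 7.31% of genes. Without blood Gr1- the same 3 did, beside 8.96% of genes. For Gbp5 both tumor macrophage values, 8.37 and 8.67, and both normal ones, 7.47 and 8.20, were under background.

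Ordered by level, the 12 arrays fell into few steps. Of 55 gaps between neighbouring arrays over the 5 genes, 44 were smaller than the olfactory receptor SD of the same 2 arrays. Tumor Gr1+ was highest for all 5 genes and blood Gr1+ followed for all but Iigp1, without a gap beyond the SD between them. Below these, Gbp3, Gbp5 and Gbp7 each had a gap beyond the SD, of 0.91, 1.02 and 0.61 on the log2 scale, before tumor MG, tumor MP, tumor Gr1- and blood Gr1-, among which no gap exceeded the SD. A next step beyond the SD set these 4 above the blood macrophage arrays for Gbp3, Gbp5 and Irgm1, by 0.79, 1.78 and 0.94. For Gbp7 no further gap exceeded the SD down to normal macrophage high. For Iigp1 the order was different, with tumor Gr1-, tumor MG, blood Gr1- and tumor MP ahead of blood Gr1+ by a gap of 0.52. Then came a gap of 1.71 before normal MP and another of 1.43 before the rest. Iigp1 was under background on normal MP and on all arrays after it, so no order can be read there. This covers the gap of 1.43 and a later one of 1.07 between normal and tumor blood macrophage high.

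Over the 12 arrays the members' values moved together. The 10 pairs of members had Pearson's r between 0.72 and 0.97 with a median of 0.90, as a description of 12 arrays of different populations that share mice and processing. Within the 6 brain arrays r was between 0.91 and 0.99, and within the 6 blood arrays between 0.59 and 0.98. Values under background entered these r as well. Of all 60 values 39 lay above it, 23 of 30 in brain and 16 of 30 in blood. How far r rests on values above against values under background was not tested. Gbp5 was nearest to the mean of the other members, at 0.99, and Iigp1 farthest, at 0.83. Without Iigp1 the 6 remaining pairs had r between 0.89 and 0.97.

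The 6 genes whose pattern was most like the mean of the 5 standardized members, among 7572 genes above background on at least 4 arrays, were Cxcl10 (r = 0.981), Cfb (0.980), Gm12250 (0.979), Herc6 (0.976), Marchf5 (0.974) and Ifit2 (0.973). Of all genes compared, 0.792% reached an r of 0.9. Cxcl10 encodes a chemokine for T cells, Cfb complement factor B, Gm12250 a further IRG known as Irgb10, Herc6 a ubiquitin-type ligase that attaches ISG15 in mice, Marchf5 a ubiquitin ligase of mitochondria and Ifit2 an interferon-induced RNA-binding protein. Within brain their r ran from 0.957 for Marchf5 to 0.998 for Gm12250 and within blood from 0.964 for Gm12250 to 0.993 for Marchf5, over the same arrays on which these genes were chosen. Gm12250 ran from 8.04 on normal blood macrophage high to 11.44 on tumor Gr1+, and was under background on both normal brain arrays, at 8.09 on normal MG and 8.39 on normal MP, against 10.08 on tumor MG and 10.38 on tumor MP. Cxcl10 had 11.42 on tumor MG and 11.76 on tumor MP, against 8.13 on normal MG and 8.76 on normal MP. Marchf5 spanned a narrower range than the others, from 9.36 to 11.40.

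**Figure D3:**
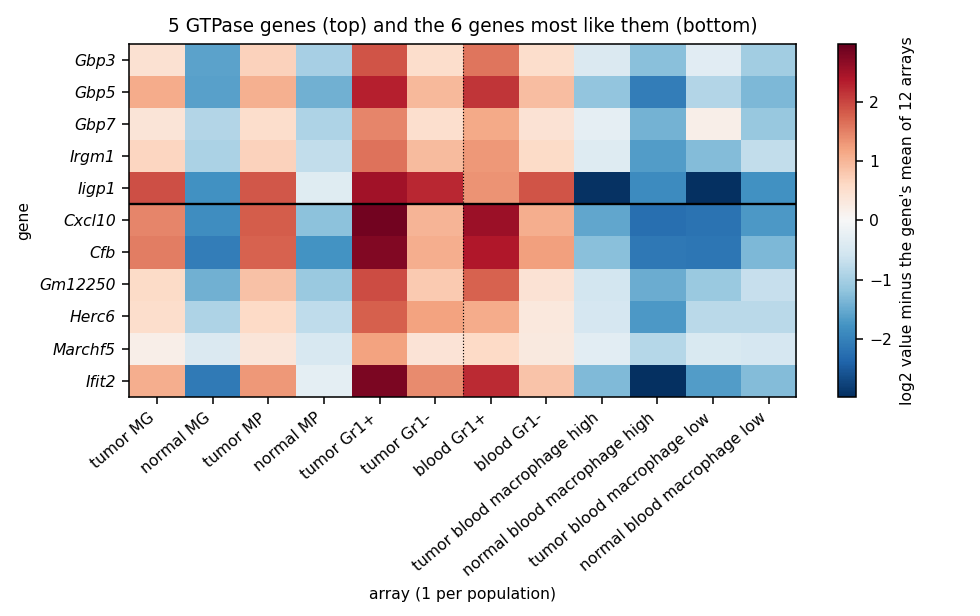
Log2 value minus the gene's mean over 12 arrays (color), for the 5 measured GTPase genes above the line and the 6 most alike genes below it (vertical axis) on the 12 arrays (horizontal axis). All 11 genes are highest on tumor Gr1+, and Iigp1 differs from the rest in its low values on tumor blood macrophage high and low, at 5.93 and 5.91, both under background.

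Related genes were counted in 4 comparisons, tumor MG and tumor MP against their normal arrays and Gr1+ against Gr1- cells of the tumor and of blood. In these, 2.44%, 1.65%, 2.88% and 3.2% of all genes passed 2-fold upward, and 3.61%, 3.58%, 5.12% and 4.31% downward. With the floor 0.657% were higher in tumor MG and 0.512% in tumor MP. The counts of each list below stand beside these shares, and no list was tested. Other interferon-inducible GTPases were counted from a list of 23 symbols, of which 11 were measured by a probe set of their own. Of these, 8 passed 2-fold upward in tumor MG and 7 in tumor MP, each against its normal array, with median log2 differences of 1.43 and 1.30. None was lower in either. With the floor the counts were 2 in tumor MG and 3 in tumor MP. Of the 11, 5 lay under background on both arrays in MG and 4 in MP. Others fell under 2-fold because only their normal value was raised. In MG, Gbp2b went from 1.24 to -0.01 and Gm12250 from 2.00 to 0.65 on the log2 scale. Gbp4 had the largest difference in both, with 10.56 on tumor MG and 6.72 on normal MG, and 10.78 on tumor MP and 8.36 on normal MP, with both normal values under background. In Gr1+ against Gr1- cells 3 of 11 were higher in the tumor and 6 higher and 1 lower in blood. The lower gene was Gm4951, named after its values were seen, with 9.57 in blood Gr1+ and 10.92 in blood Gr1- cells. Gbp2b had 10.84 in tumor Gr1+ and 9.25 in tumor Gr1- cells, and Mx1, a dynamin-like GTPase that blocks viruses, had 10.81 in blood Gr1+ and 9.17 in blood Gr1- cells.

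The interferon-gamma receptor and its signalling were counted next. Of 8 measured genes, tumor MG and tumor MP each had 1 that passed 2-fold upward, Gr1+ cells of the tumor and of blood each had 2, and none was lower. The medians were -0.05, 0.39, 0.13 and 0.21 on the log2 scale. Ifng, the ligand, was under background on all 12 arrays, with values between 7.20 and 8.64. Both receptor chains were well above background in brain, with Ifngr1 at 11.60 on tumor MG and 11.68 on tumor MP, against 12.58 on normal MG and 12.10 on normal MP, and Ifngr2 at 11.74 on tumor MG and 11.97 on tumor MP, against 11.86 on normal MG and 11.61 on normal MP. Irf1, a transcription factor induced by interferon-gamma that acts on GBP promoters, was the gene of this list that passed 2-fold in tumor MG and MP. It had 10.55 on tumor MG and 10.68 on tumor MP, against 8.94 on normal MG and 9.36 on normal MP. In Gr1+ against Gr1- cells it had 11.56 against 10.42 in the tumor and 12.10 against 10.57 in blood. Socs1, an inhibitor of this pathway, had 10.17 in tumor Gr1+ and 8.66 in tumor Gr1- cells.

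Target genes of interferon-gamma other than GTPases had 13 measured genes, of which 9 passed 2-fold upward in tumor MG, 5 in tumor MP, 7 in Gr1+ cells of the tumor and 4 in those of blood, with none lower. The medians were 1.31, 0.53, 1.02 and 0.58. Cxcl9, a chemokine for T cells, had 11.88 on tumor MG and 12.12 on tumor MP, against 7.69 on normal MG and 8.60 on normal MP. Acod1, which makes itaconate, had 11.10 in tumor Gr1+ and 8.73 in tumor Gr1- cells. Its values were 11.68 in blood Gr1+ and 9.64 in blood Gr1- cells. Targets of type I interferons were higher in the same 4 comparisons for 13, 8, 10 and 12 of 14 measured genes, with medians of 2.51, 1.16, 1.34 and 1.40 and none lower. Irf7, the transcription factor that amplifies type I interferon, had 11.58 on tumor MG and 7.49 on normal MG. Zbp1, a nucleic acid sensor, had 10.83 on tumor MP and 8.98 on normal MP. Cmpk2, a mitochondrial nucleotide kinase, had 11.48 in tumor Gr1+ and 9.50 in tumor Gr1- cells. Its blood values were 11.56 in Gr1+ and 9.52 in Gr1- cells. With the floor 5 of 14 type I targets passed 2-fold upward in tumor MG and 6 in tumor MP. Of 13 interferon-gamma targets, 4 and 5 did. Among 6 genes of type I signalling 1, Stat2, was higher in tumor MG and tumor MP, at 11.25 on both, against 8.83 on normal MG and 10.12 on normal MP, and none in Gr1+ cells. Stat2 had 12.32 in Gr1+ and 11.51 in Gr1- cells of the tumor. Its blood values were 12.14 in Gr1+ and 11.19 in Gr1- cells. Many of the genes in these lists answer to both kinds of interferon.

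The machinery these GTPases work with was counted last. Of 13 genes of ubiquitin-like conjugation that target vacuoles, none passed 2-fold upward in tumor MG, tumor MP or tumor Gr1+ cells, 1, Gabarapl1, was lower in tumor MG from values under background on both arrays, and 1, Atg3, was higher in blood Gr1+ cells, at 10.51 against 9.33 in blood Gr1- cells. Atg5, an autophagy gene that IRG targeting needs in mice, had 8.69 on tumor MG and 9.59 on normal MG. Atg12 had 8.45 on tumor MP and 9.19 on normal MP, and Atg7 had 10.05 in tumor Gr1+ and 9.27 in tumor Gr1- cells. Of 7 prenylation enzymes, which add the lipid anchor that some GBPs carry, none was higher in these 4 comparisons and 1, Fnta, was lower in tumor MG, also from values under background on both arrays. Rabggta had 9.90 on tumor MG and 9.79 on normal MG, and Icmt had 9.32 on tumor MP and 8.95 on normal MP. Rabggtb had 9.29 in tumor Gr1+ and 9.59 in tumor Gr1- cells, and Rce1 had 9.10 in blood Gr1+ and 9.54 in blood Gr1- cells. Among 8 caspase and inflammasome genes 2, 1, 2 and 3 passed 2-fold upward in tumor MG, in tumor MP and in Gr1+ cells of tumor and of blood, with none lower, beside 2.44%, 1.65%, 2.88% and 3.2% of all genes. Casp4, the mouse caspase-11 that senses bacterial lipopolysaccharide released by GBPs, had 10.47 on tumor MP and 9.12 on normal MP, and 11.94 in tumor Gr1+ and 10.64 in tumor Gr1- cells. Il1b, a cytokine that inflammasomes process, had 10.71 on tumor MG and 7.64 on normal MG, and 13.04 in blood Gr1+ and 10.43 in blood Gr1- cells.

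**Figure D4:**
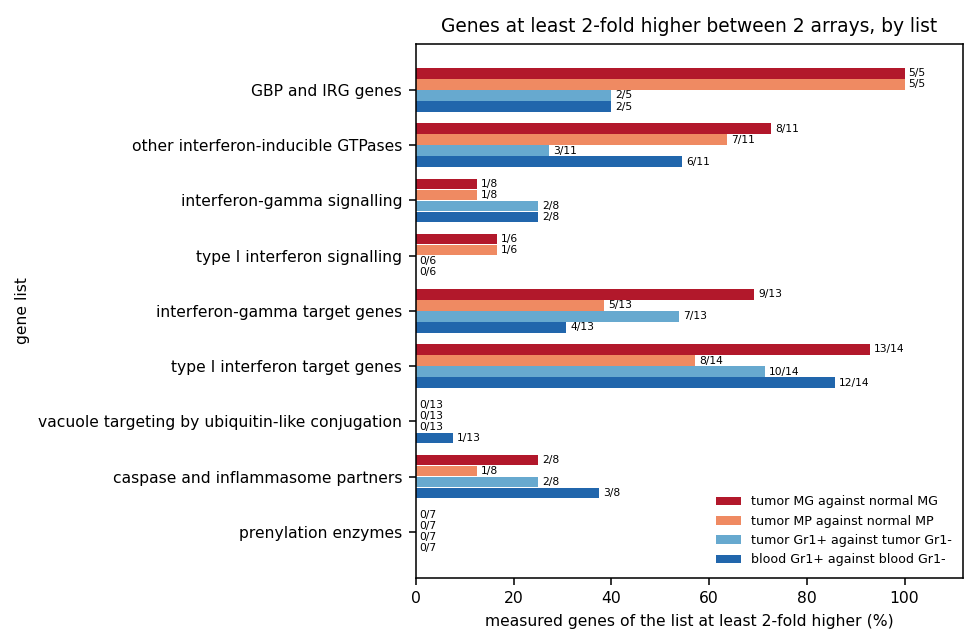
Share of the measured genes of each list that were at least 2-fold higher (horizontal axis, percent), for the GTPase genes and 8 lists of related genes (vertical axis) in 4 comparisons of 2 arrays, with counts beside the bars. GTPase genes and type I interferon targets have the longest bars in tumor MG, at 5 of 5 and 13 of 14, while prenylation enzymes have none.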

How the data were processed

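The authors amplified RNA of 12 flow-sorted populations in 2 cycles and hybridized each to 1 Affymetrix Mouse Gene ST array. Expression Console gave the deposited log2 values, for which the submitters' processing notes name RMA. The genome build and annotation release were not given in the sources used here.

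Values were used without rescaling or filtering. Of 28944 probe sets, 21789 carried 1 gene symbol in GEO's platform annotation, 1621 several and 5534 none. The brightest probe set of each symbol gave 19938 genes. In 10 comparisons the log2 values of 2 arrays were subtracted and differences of 2-fold or more were counted, and the number of arrays limits the precision. Olfactory receptor genes set the background at their 95th percentile, and values under it were raised to it where a floor is named. With 1 array in each population, pairs of arrays were not tested. A limma fit with the population as a block compared tumor with normal arrays over brain MG and MP and over these with blood macrophage high and low, with Benjamini-Hochberg adjustment over all genes.

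The members and the gene lists were chosen with earlier results of these data known. Of 97 genes in 8 lists, 80 were measured. Each list names up to 4 genes, in this order the gene with the largest absolute difference in MG and MP (tumor against normal) and in tumor and blood (Gr1+ against Gr1-) among genes above background on either array, and Irf1, Ifng, Ifngr1 and Ifngr2 are always named. Gm4951, Gabarapl1 and Fnta were named after their values were seen. A gene of these lists is not reported here. The 6 most alike genes were taken by Pearson's r. As alternatives, arrays were centred on medians or normalized by quantiles or cyclic loess, and further ones were averaged probe sets, a floor at the 95th or 90th percentile, other fold thresholds, only genes above background and, for the blood arrays, other reference arrays. The computation was tested on simulated data. Software was Python 3.11.15 (pandas 2.3.3, numpy 2.4.6, matplotlib 3.10.9) and limma 3.58.1 under R 4.3.3.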

Additional observations from a re-analysis of the deposited data

Results flagged for a closer look

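Iigp1 went opposite ways between Gr1+ and Gr1- cells of the 2 tissues, with a log2 difference of 0.27 in the tumor and -0.53 in blood. The first is within the SD of olfactory receptor genes between those arrays, 0.35, and the second is beyond its own, 0.38. The blood Gr1- array carries microglia and B cell markers. The difference between the tissues was not tested.

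Probe sets annotated to several family members, left out above, also had signal that was higher on tumor than on normal brain arrays. The probe set of Gbp2 and Gbp2b had log2 values of 11.65 on tumor MG and 11.77 on tumor MP, against 7.55 on normal MG and 8.94 on normal MP, with differences of 4.10 and 2.82, and reached 13.24 on tumor Gr1+. Both normal values were under background, and with the floor the differences were 2.22 and 2.70. The probe set of 6 GBP genes with Gbp6 among them had 11.34 on tumor MG and 11.47 on tumor MP, against 8.44 on normal MG and 9.04 on normal MP, with differences of 2.90 and 2.43, or 1.91 and 2.40 with the floor. The probe set of Irgm2 and Igtp was above background on normal MG and normal MP, at 10.35 and 10.16. It had 10.86 on tumor MP, a log2 difference of 0.69, while that of 0.25 in MG, with 10.60 on tumor MG, was within the olfactory receptor SD of 0.41. None of these signals can be given to 1 gene, and none of the differences was tested.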

How the results depend on the processing

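The count of 5 members higher on all 4 tumor brain arrays than on both normal ones was 5 under each scaling and floor tried. As deposited, 5.58% of genes met this rule. In tumor MG the median log2 difference was 1.25 and 1.499 with floors at the 95th and 90th percentile, and 3 members passed 4-fold, beside 0.767% of genes, as did 2 in tumor MP, beside 0.135%. These rest on normal values under background, and with the floor no member passed 4-fold, beside 0.11% of genes in tumor MG and 0.0502% in tumor MP. The share of all genes at 1.5-fold is not given here, so counts at 1.5-fold are not read as a result about the members. In tumor Gr1+ cells 4 passed 1.5-fold and 0 passed 4-fold, beside 0.547% of genes at 4-fold. In blood Gr1+ cells 1 passed 2-fold after quantile normalization, beside 3.36% of genes. There 4 passed 1.5-fold and 0 passed 4-fold, beside 0.607% of genes at 4-fold. Against tumor blood macrophage high and low, references chosen after seeing the data, 5 and 4 passed 2-fold with medians of 2.02 and 2.59. Against macrophage high 5.2% of genes passed, and the share against macrophage low is not given here. In tumor against blood Gr1+ cells 0 passed after quantile normalization, beside 0.988% of genes, or at 4-fold, beside 0.0552%. In normal MP against normal MG 2 passed 1.5-fold, and 0 passed 4-fold, beside 1.31% of genes at 4-fold. With either floor 0 passed 2-fold, beside 1.33% and 1.67% of genes. Among genes above background 0 passed, beside 8.48% of such genes. Both floors gave -0.36 and -0.41 for the median and for Iigp1 alike, which are differences of background levels. In tumor MP against tumor blood macrophage high 2 passed after median centring, beside 5.83% of genes. At 4-fold 2 passed, beside 2.02%. The blood values of these members were under background.

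For blood macrophage high, tumor against normal, 4 members were higher and 0 lower after median centring, beside 24.6% of genes higher and 11.6% lower, or quantile normalization, beside 21.7% and 16.4%. After cyclic loess normalization 0 were higher and 0 lower, beside 19.4% and 10.04%. With either floor 0 were higher, beside 3.96% and 5.64% of genes, and 2 were lower, beside 69.9% and 62.4%. Medians with the floors were -0.87 and -0.54, and Irgm1 had -0.27 at the 95th percentile. For macrophage high 4 were higher at 1.5-fold. At 4-fold 0 were higher, beside 4.79% of genes, and 0 lower. Among genes above background 0 were lower, beside 13.2% of such genes. Against the other normal array 0 were higher, beside 1.79% of genes. For macrophage low, 0 were lower after quantile normalization, beside 4.81% of genes. With either floor (medians -0.16 and -0.23) 0 were lower, beside 1.94% and 2.41%. At 4-fold 0 were lower, and among genes above background 0 were, beside 8.67% of such genes. At 1.5-fold 2 were higher, and against the other normal array 2 were, beside 13.5% of genes. At 4-fold 0 were higher, beside 0.592%. With either floor, 1 member in place of 3 had all blood arrays of tumor-bearing mice above both normal ones. The share of all genes with a floor is not given here for this rule. Apart from floors and thresholds, whose construction sets these values, the cause was not tested. The mean of probe sets changed no value of a measured member, since each has 1. The fit with the population as a block called 0 members higher over 2 or 4 populations, beside 0.0251% and 0% of genes. Over MG and MP with the floor it called 5 members higher, beside 0.968% of genes. There raised values share 1 level and the spread is not that of measurements. No block by replicate number was run, since each population has 1 array. Values under background limit most differences against normal cells to lower bounds.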
